A study of Mus musculus with 8 samples.

Results

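Cytochrome P450 genes were measured in whole liver of 5 POMCMfn2KO and 3 control mice, 1 array per mouse. The genes described here are those whose platform symbol is Cyp followed by a number, without the bile acid and cholesterol genes Cyp7a1, Cyp7b1, Cyp8b1, Cyp27a1 and Cyp51 and the PPARa targets Cyp4a10 and Cyp4a14. This rule gave 67 genes out of 18193 that the platform names. Where a gene had several probe sets, its brightest one on average stood for it. POMCMfn2KO mice lack Mfn2, the gene of a mitochondrial fusion protein, in the POMC neurons of the hypothalamus, so that the liver itself was not the tissue aimed at. Controls are labelled WT. All mice were 6 weeks old, on a mixed background of C57Bl/6J, FVB/N and 129, and ate standard chow freely; sex, time of collection, and the Cre and floxed alleles that the controls may carry are not given in the labels. The question is how hepatic P450 expression compares between mice without and with Mfn2 in these neurons.

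P450 enzymes are haem proteins that insert an oxygen atom into drugs, pollutants, steroids, fatty acids and vitamins. Most sit in the endoplasmic reticulum of hepatocytes and receive electrons from a reductase shared by the whole superfamily, while a few sit in mitochondria and are served by a ferredoxin. Their hepatic genes are known to respond to the xenobiotic receptors PXR, CAR and AhR, to lie in tandem clusters of close relatives, to differ between the sexes of the mouse under the control of growth hormone, and to be expressed mostly around the central vein of the lobule.

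Values are log2 levels, so that a difference of 1 is a doubling, and differences are POMCMfn2KO minus control. Levels of different probe sets are not comparable with each other, and a probe set can bind transcripts of close relatives. Genes whose mean over the 8 arrays was below 5.80, the median of all probe sets, were not tested; 47 of the 67 P450 genes were above it. The hepatocyte markers were bright in every liver, with a mean over 6 genes of 14.57 to 14.78 in POMCMfn2KO and 14.57 to 14.59 in controls. POMCMfn2KO 2 and 3 stood apart in pancreatic acinar transcripts: the mean of 14 acinar genes was 10.42 and 10.57 in these livers, against 6.01 to 6.28 in the other POMCMfn2KO livers and 6.04 to 6.08 in controls. Of the 17 acinar genes listed, 13 were above the filter and none passed in limma (0 at an unadjusted p under 0.05). Among the markers of other cell types, only the endothelial gene Stab2 (0.55, adjusted p = 0.0107) and the adipocyte gene Fabp4 (0.48, adjusted p = 0.0128) passed, and both rose. The other tested endothelial genes, Lyve1 (0.44), Clec4g (0.32), Kdr (0.16) and Cdh5 (-0.06), did not pass. Fabp4 was the only adipocyte gene above the filter, while Adipoq and Lep were under it and overlapped between groups. The part of these markers in the P450 results was not tested. In whole tissue, fewer cells of a type and less RNA per cell cannot be told apart.

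Most P450 genes did not pass the test, and the few differences of at least 1 in size ran in both directions. With limma and Benjamini-Hochberg adjustment over 11986 genes, 5 of 47 P450 genes rose in POMCMfn2KO liver, where 7.02% of all genes tested rose, and 4 fell, where 10.9% of all genes fell. The 9 called genes are 19.1% of the P450 genes tested, against 18% of all genes, so that the share of P450 genes called is near the background. Cyp4a31, Cyp17a1, Cyp1a2, Cyp4f13 and Cyp2c68 rose, and Cyp46a1, Cyp3a13, Cyp2c29 and Cyp26a1 fell. In 11 P450 genes there was no overlap between groups, 7 with POMCMfn2KO above and 4 with POMCMfn2KO below, against 28.5% of all genes. The median difference over the tested P450 genes was -0.03, and -0.02 over all genes. Differences of at least 1 in size were found in 6 of the 47 P450 genes (12.8%), against 1.74% of all genes; they were those of Cyp39a1 (1.93), Cyp17a1 (1.63), Cyp4a31 (1.44), Cyp2b10 (1.08), Cyp46a1 (-1.10) and Cyp2c37 (-3.16). Of these 6, only Cyp17a1, Cyp4a31 and Cyp46a1 passed the test.

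The calls differ in how well they held when livers were left out, and calls were lost among all genes as well. With all livers 18% of all genes were called, and without 1 control 6.84% to 7.2%. Without 1 POMCMfn2KO liver this share was 11.7% to 23%, and without POMCMfn2KO 2 and 3 together 5.34%. Cyp46a1, Cyp26a1 and Cyp4f13 passed without any 1 of the 8 livers. The other 6 calls each failed when any 1 control was left out; the highest adjusted p with 1 liver left out was 0.0964 for Cyp17a1, 0.121 for Cyp1a2, 0.113 for Cyp2c29, 0.0891 for Cyp2c68, 0.131 for Cyp3a13 and 0.0867 for Cyp4a31. Among the POMCMfn2KO livers, Cyp17a1 and Cyp2c29 were also lost without POMCMfn2KO 2 or 3, Cyp1a2 and Cyp3a13 without POMCMfn2KO 2, 3 or 5, and Cyp4a31 without POMCMfn2KO 3. The number that rose was 1 without any control, 2 without POMCMfn2KO 3 and 9 without POMCMfn2KO 1; the number that fell was 2 without any control or POMCMfn2KO 2 or 3, and 7 without POMCMfn2KO 4. Without POMCMfn2KO 2 and 3 together, the livers high in acinar transcripts, no P450 gene rose in limma (8 were higher at an unadjusted p under 0.05) and 2 fell, Cyp46a1 and Cyp26a1; Cyp4f13 then had adjusted p = 0.0602.

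**Figure D1:**
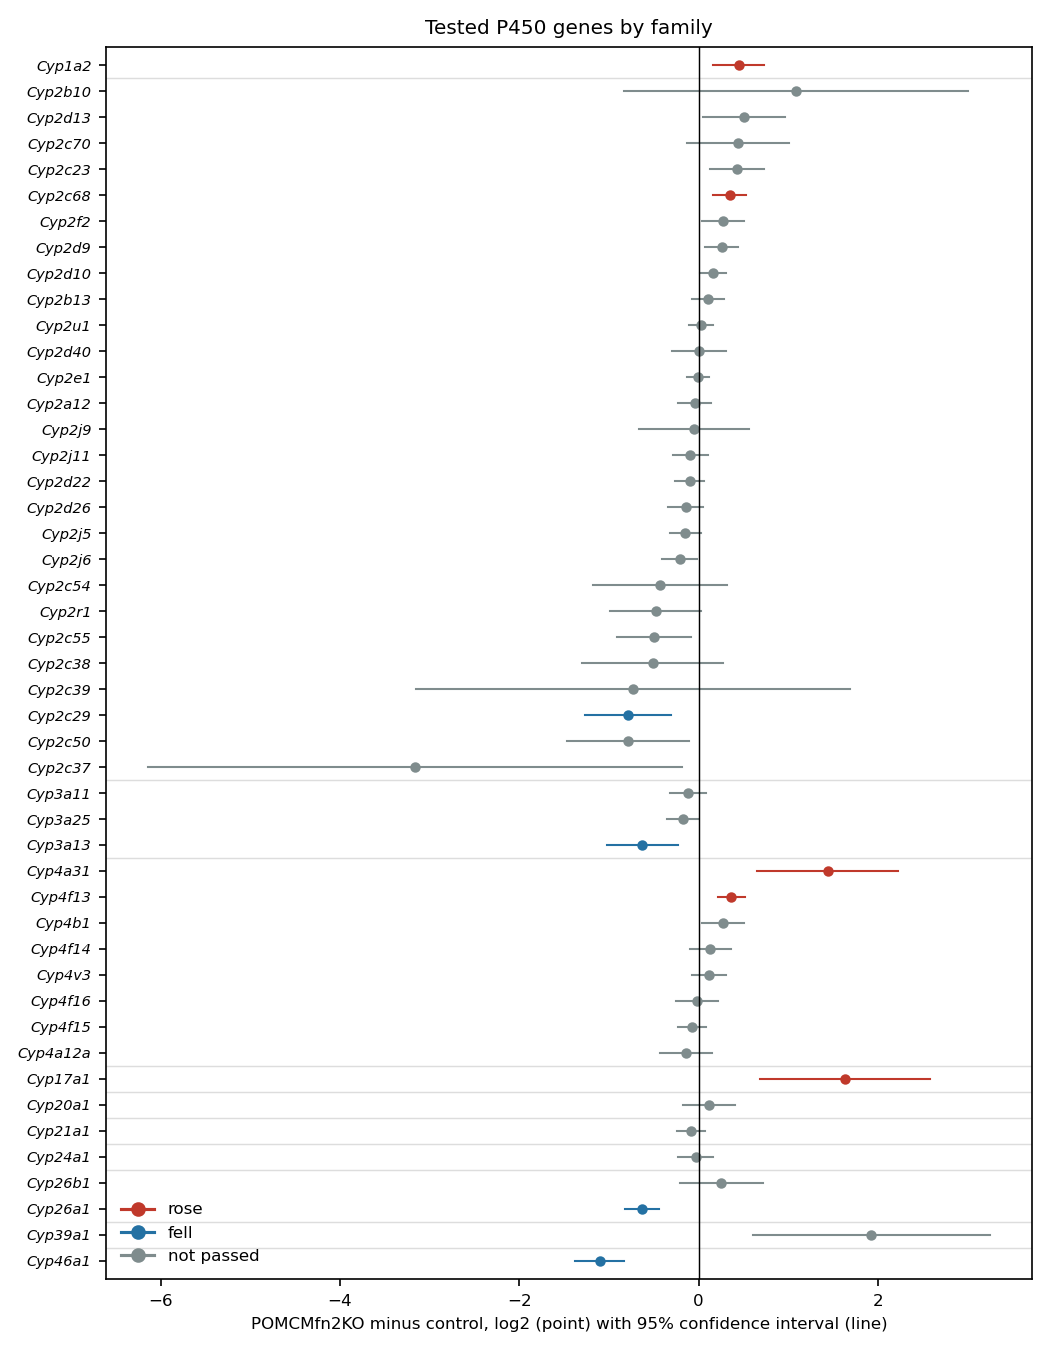
Log2 difference, POMCMfn2KO minus control, of the 47 tested P450 genes, ordered by family and then by difference, with the 95% confidence interval of the limma fit; red genes rose, blue genes fell and grey genes did not pass. The widest intervals are those of Cyp2c37, Cyp2c39 and Cyp2b10.

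In family 1, Cyp1a2 rose. Cyp1a2, an AhR-responsive enzyme that clears caffeine and activates aromatic amines, read 12.22, 12.62, 12.63, 12.86 and 12.74 in POMCMfn2KO livers 1 to 5, against 12.18, 12.16 and 12.17 in controls. All 5 POMCMfn2KO livers were above the controls, but POMCMfn2KO 1 exceeded them by little. The difference was 0.45 (1.36-fold, 95% interval 0.17 to 0.73, adjusted p = 0.0380). Cyp1a1 and Cyp1b1, the other AhR-responsive members, were below the filter, at means of 5.39 and 5.58 over the 8 arrays, and differed by 0.01 and -0.03.

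Family 2, the largest set of drug-metabolising P450s, held 35 of the 67 genes, of which 27 were tested, 1 rose and 1 fell. Of all genes tested, 7.02% rose and 10.9% fell. Cyp2e1, which oxidises ethanol and paracetamol, read 14.83, 14.81, 14.74, 14.86 and 14.81 in POMCMfn2KO livers and 14.82, 14.81 and 14.82 in controls. The groups overlapped, and the difference of -0.01 had a 95% interval of -0.13 to 0.12. Cyp2a12, a bile acid and steroid hydroxylase, differed by -0.04 (95% interval -0.23 to 0.14).

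Of the Cyp2b genes, best known as targets of CAR and PXR, neither of the 2 tested passed, and Cyp2b9, under the filter, separated the groups. Cyp2b9, a gene with female-biased expression in mouse liver, read 4.14, 4.50, 4.19, 4.22 and 4.35 in POMCMfn2KO livers, against 7.52, 7.70 and 8.10 in controls. Every POMCMfn2KO liver was below every control by more than the whole range within either group. Since its mean over all 8 arrays, 5.59, lay under the filter, Cyp2b9 was not among the 47 P450 genes tested. The means were 4.28 in POMCMfn2KO and 7.77 in controls, a difference of -3.49 that is given as a description, with no test under this filter. Cyp2b9 was tested in limma only under other filters. With no filter, its adjusted p was 9.62e-07. With a filter on the mean of the brighter group, it was 2.05e-06. Cyp2b9 passes that filter only through its level in controls. The POMCMfn2KO values are at the level of dim probe sets, so that background limits the size of the difference.

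Cyp2b10, the standard reporter gene of CAR activity, varied between POMCMfn2KO livers far more than between controls. It read 11.48, 8.87, 7.28, 7.09 and 8.06 in POMCMfn2KO livers, against 7.44, 7.40 and 7.56 in controls. POMCMfn2KO 1 was 4.01 above the control mean and POMCMfn2KO 2 was 1.40 above it, whereas POMCMfn2KO 3 and 4 were below all controls. The difference of 1.08 did not pass (95% interval -0.84 to 3.00, adjusted p = 0.416), and the other probe sets of Cyp2b10 gave 1.30 and 1.53. Cyp2b13, another female-biased relative, read 6.45, 6.22, 6.22, 6.48 and 6.39 in POMCMfn2KO livers and 6.19, 6.28 and 6.27 in controls. These groups overlapped (0.11, 95% interval -0.08 to 0.29, adjusted p = 0.401).

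The Cyp2b genes are neighbours on chromosome 7 in the order Cyp2b10, Cyp2b13, Cyp2b9, and their promoters are shown because the differences of the 3 genes were so unlike. The 250 bases before each start come from RefSeq (GRCm38.p6, plus strand, 5′ to 3′): chr7:26173159-26173408 for Cyp2b9, chr7:26061245-26061494 for Cyp2b13 and chr7:25897408-25897657 for Cyp2b10. Capitals mark AGGTCA, the core bound by many nuclear receptors.
Cyp2b9: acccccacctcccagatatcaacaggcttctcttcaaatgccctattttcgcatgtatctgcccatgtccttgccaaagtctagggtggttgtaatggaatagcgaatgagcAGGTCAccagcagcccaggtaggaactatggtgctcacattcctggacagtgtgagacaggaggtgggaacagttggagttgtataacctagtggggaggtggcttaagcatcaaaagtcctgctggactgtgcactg
Cyp2b13: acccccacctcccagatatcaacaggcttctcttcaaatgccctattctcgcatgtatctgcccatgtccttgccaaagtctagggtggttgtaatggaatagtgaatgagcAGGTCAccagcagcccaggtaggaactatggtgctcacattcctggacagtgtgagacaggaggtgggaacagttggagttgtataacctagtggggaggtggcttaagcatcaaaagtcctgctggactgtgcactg
Cyp2b10: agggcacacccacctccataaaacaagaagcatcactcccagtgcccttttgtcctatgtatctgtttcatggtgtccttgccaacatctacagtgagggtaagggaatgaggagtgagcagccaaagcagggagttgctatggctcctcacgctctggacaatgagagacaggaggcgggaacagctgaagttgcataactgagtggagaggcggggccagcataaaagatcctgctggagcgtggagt

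The Cyp2b9 and Cyp2b13 windows were 99.2% identical over 250 bases. They differ by T48C and C104T, with the Cyp2b9 base given before the Cyp2b13 base and positions counted from 1 at the 5′ end of the window. Cyp2b10 was 70.0% identical to either over 260 aligned columns. A difference of -3.49 in Cyp2b9 and of 0.11 in Cyp2b13 thus stood beside nearly the same upstream sequence. The AGGTCA string is present in the Cyp2b9 and Cyp2b13 windows and not in that of Cyp2b10; it occurs on either strand in 14.0% of 32851 RefSeq promoter windows of the same length, and in 13 of 56 windows of 49 P450 genes.

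The Cyp2c genes, which oxidise drugs and make epoxides of arachidonic acid, shared no direction. Of 10 tested, Cyp2c68 rose and Cyp2c29 fell, which is 20% called, against 18% of all genes. The median difference of the 10 was -0.51. Cyp2c29, a CAR-responsive and pericentral gene, read 12.15, 12.60, 12.98, 13.19 and 13.11 in POMCMfn2KO livers, against 13.53, 13.64 and 13.62 in controls. All POMCMfn2KO livers were below all controls, with POMCMfn2KO 1 the lowest (-0.79, 1.73-fold lower, adjusted p = 0.0328). Cyp2c68 read 13.12, 12.93, 13.21, 12.99 and 12.99 in POMCMfn2KO livers, against 12.71, 12.78 and 12.61 in controls. Its groups did not overlap either, and its values were close together within each group (0.35, 1.27-fold, adjusted p = 0.0189).

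Cyp2c37, an epoxygenase gene, had the widest range of all tested P450 genes. It read 10.95, 6.49, 6.06, 12.21 and 7.52 in POMCMfn2KO livers, against 11.83, 11.86 and 11.72 in controls. POMCMfn2KO 2, 3 and 5 were 4.28 to 5.75 below the control mean, POMCMfn2KO 1 was 0.86 below it and POMCMfn2KO 4 was 0.40 above it. The groups overlapped and the mean difference of -3.16 did not pass (95% interval -6.14 to -0.18, adjusted p = 0.130). Without POMCMfn2KO 4 it was -4.05 with adjusted p = 0.0229. Leaving out the highest POMCMfn2KO liver makes this difference larger by construction. Without POMCMfn2KO 4, 22.9% of all genes were called, against 18% with all livers. The mean of the acinar genes was 10.42, 10.57 and 6.01 in POMCMfn2KO 2, 3 and 5.

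Cyp2c54, Cyp2c50 and Cyp2c70, which follow Cyp2c37 in the order of the RefSeq table on chromosome 19, also varied between POMCMfn2KO livers. Cyp2c50 read 12.67, 12.47, 12.75, 13.57 and 11.85 in POMCMfn2KO livers and 13.51, 13.56 and 13.29 in controls (-0.79, adjusted p = 0.102). Cyp2c54 read 11.61, 11.23, 11.54, 12.41 and 10.53 in POMCMfn2KO livers and 11.99, 11.94 and 11.74 in controls (-0.43, adjusted p = 0.410). In both genes POMCMfn2KO 4 was the highest POMCMfn2KO liver and POMCMfn2KO 5 the lowest, and neither passed; Cyp2c50 passed without POMCMfn2KO 4 (adjusted p = 0.00895). Cyp2c70, which makes the muricholic acids of the mouse, read 12.05, 12.85, 12.98, 11.82 and 12.74 in POMCMfn2KO livers and 12.07, 12.02 and 12.06 in controls. Here POMCMfn2KO 2, 3 and 5 were above the controls and POMCMfn2KO 4 below them (0.44, adjusted p = 0.264). Cyp2c55 read 6.25, 5.77, 5.92, 6.67 and 5.88 in POMCMfn2KO livers and 6.53, 6.70 and 6.56 in controls. It too was low in POMCMfn2KO 2, 3 and 5 and within the range of the controls in POMCMfn2KO 4 (-0.50, adjusted p = 0.0922, and 0.00576 without POMCMfn2KO 4). In Cyp2c50 and Cyp2c55, as in Cyp2c37, leaving out the highest POMCMfn2KO liver makes the difference larger by construction.

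The promoter windows of Cyp2c37 and Cyp2c50 are shown because these neighbours are close in sequence and unequal in range. They are the 250 bases before the start from RefSeq (GRCm38.p6, plus strand, 5′ to 3′), chr19:39992174-39992423 for Cyp2c37 and chr19:40089429-40089678 for Cyp2c50. Capitals mark ATTGAT on either strand, the core of sites bound by Onecut factors.
Cyp2c37: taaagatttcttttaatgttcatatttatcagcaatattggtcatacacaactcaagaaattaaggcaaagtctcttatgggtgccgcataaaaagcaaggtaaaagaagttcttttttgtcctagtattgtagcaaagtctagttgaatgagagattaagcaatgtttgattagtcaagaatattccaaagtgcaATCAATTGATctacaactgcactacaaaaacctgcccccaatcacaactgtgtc
Cyp2c50: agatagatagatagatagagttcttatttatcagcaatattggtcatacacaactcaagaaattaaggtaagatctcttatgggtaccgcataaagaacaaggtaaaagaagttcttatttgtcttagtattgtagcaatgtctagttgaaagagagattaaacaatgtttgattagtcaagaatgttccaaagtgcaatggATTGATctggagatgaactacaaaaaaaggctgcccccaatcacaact

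The Cyp2c37 and Cyp2c50 windows were 84.3% identical over 255 aligned columns. The string occurs once in the Cyp2c50 window and in 2 overlapping matches, 1 on each strand, in that of Cyp2c37; it is found in 6.72% of all windows and in 8 of the 56 P450 windows. Other strings searched on both strands were TATAAA (12.4% of all windows, 18 of 56 P450 windows), the STAT pattern TTCNNNGAA (7.02%, 3 of 56), the forkhead string TGTTTAC (3.17%, 7 of 56) and the PAR bZIP strings TTATGTAA (0.819%) and TTACGTAA (0.113%), which no P450 window held. A match is only a run of letters and was not measured as binding.

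Among the other Cyp2c genes, 1 liver could carry the spread. Cyp2c39 read 11.33, 12.13, 11.63, 7.07 and 12.72 in POMCMfn2KO livers, against 11.71, 11.76 and 11.66 in controls. POMCMfn2KO 4, the liver closest to controls in Cyp2c37, was 4.64 below the control mean of Cyp2c39 (-0.73, adjusted p = 0.684). Cyp2c38 read 10.47, 10.70, 10.13, 9.64 and 11.57 in POMCMfn2KO livers, against 10.97, 11.03 and 11.04 in controls, again with POMCMfn2KO 4 lowest and POMCMfn2KO 5 highest (-0.51, adjusted p = 0.340). Cyp2c23, an epoxygenase gene, read 12.05, 12.67, 12.54, 12.46 and 12.63 in POMCMfn2KO livers, against 12.10, 12.06 and 11.96 in controls. It was higher in 4 of 5 POMCMfn2KO livers and narrowly missed the threshold (0.43, adjusted p = 0.0516).

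**Figure D2:**
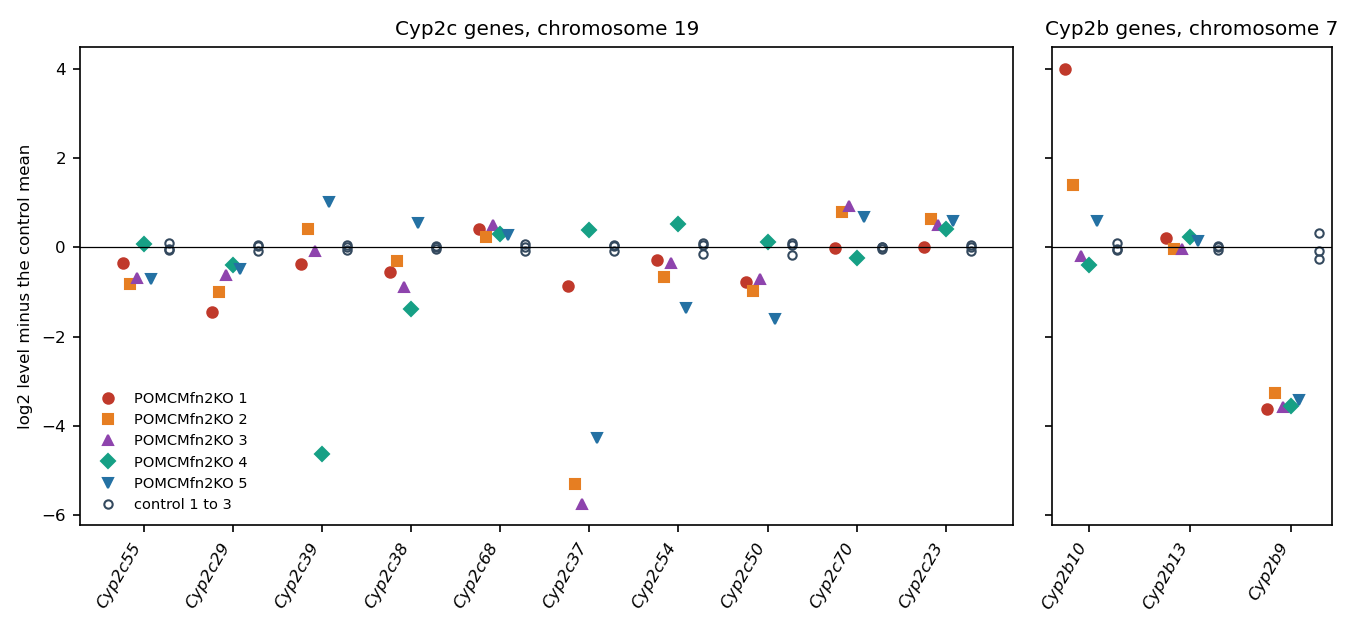
Log2 level minus the control mean (vertical axis) for the tested Cyp2c genes, left to right in their order on chromosome 19, and for 3 Cyp2b genes in their order on chromosome 7; filled markers are the 5 POMCMfn2KO livers and open circles the 3 controls. Cyp2c37 is far below 0 in POMCMfn2KO 2, 3 and 5, Cyp2c39 in POMCMfn2KO 4, and Cyp2b9 in all 5.

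The Cyp2d genes, counterparts of the human drug-metabolising CYP2D6, had differences of -0.14 to 0.51, and none of 6 passed. Cyp2d9, a male-biased steroid hydroxylase, read 14.02, 13.98, 14.28, 14.20 and 14.23 in POMCMfn2KO livers, against 13.89, 13.86 and 13.91 in controls. The groups did not overlap, but adjusted p was 0.0583 (0.26, 95% interval 0.07 to 0.44). Cyp2d10 did not overlap either (0.16, adjusted p = 0.110), and Cyp2d26 and Cyp2d22 differed by -0.14 and -0.10. Another probe set of Cyp2d22 gave -0.47, and with the mean of all its probe sets Cyp2d22 passed (-0.29, adjusted p = 0.0271). Cyp2f2, a periportal enzyme that activates naphthalene, differed by 0.27 (adjusted p = 0.0947). None of the 4 tested Cyp2j genes, which make epoxides of arachidonic acid, passed (from -0.21 to -0.05, with Cyp2j5 at -0.15), although Cyp2j6 did with the mean of all its probe sets (-0.33, adjusted p = 0.0440). Cyp2u1, a fatty acid hydroxylase, did not pass (0.03, adjusted p = 0.769).

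In family 3, the chief drug oxidases of liver, the PXR target Cyp3a11 did not pass while Cyp3a13 fell. Cyp3a13 read 12.45, 11.82, 11.67, 11.55 and 11.82 in POMCMfn2KO livers, against 12.48, 12.56 and 12.43 in controls. POMCMfn2KO 1 lay among the controls and the other 4 below them (-0.63, 1.54-fold lower, 95% interval -1.02 to -0.23, adjusted p = 0.0380). Cyp3a11 read 14.37, 14.47, 14.50, 14.42 and 14.76 in POMCMfn2KO livers, against 14.59, 14.62 and 14.64 in controls (-0.11, adjusted p = 0.418). Cyp3a25 was below the controls in all 5 POMCMfn2KO livers, by -0.18 on average (adjusted p = 0.136). The female-biased Cyp3a44 and Cyp3a16 were under the filter and differed by -0.42 and -0.03.

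Family 4 hydroxylates fatty acids and leukotrienes, and 2 of its 8 tested genes rose, where 7.02% of all genes rose. Cyp4a31, of the fatty acid hydroxylase subfamily, read 12.05, 12.17, 11.86, 10.39 and 11.49 in POMCMfn2KO livers, against 10.20, 10.18 and 10.08 in controls. Each POMCMfn2KO liver exceeded every control, POMCMfn2KO 4 by the least (1.44, 2.71-fold, 95% interval 0.66 to 2.22, adjusted p = 0.0222). Another Cyp4a31 probe set gave 1.74. Cyp4a12a, a male-biased relative, did not pass: it read 12.57, 13.10, 13.05, 13.19 and 13.08 in POMCMfn2KO livers and 13.18, 13.11 and 13.12 in controls (-0.14, adjusted p = 0.490).

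Cyp4f13, of the subfamily that inactivates leukotrienes, read 9.36, 9.36, 9.39, 9.24 and 9.26 in POMCMfn2KO livers, against 9.03, 8.97 and 8.87 in controls. Both groups were tight and separate (0.37, 1.29-fold, adjusted p = 0.00738). Its relatives Cyp4f14 (0.13), Cyp4f15 (-0.08) and Cyp4f16 (-0.01) did not pass, nor did Cyp4b1 (0.27, adjusted p = 0.102) or Cyp4v3 (0.12, adjusted p = 0.357).

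Of 5 genes of steroid hormone synthesis, Cyp17a1 and Cyp21a1 were above the filter, and Cyp17a1 rose. Cyp17a1, the hydroxylase and lyase on the way to androgens, read 11.39, 9.99, 10.07, 8.94 and 10.01 in POMCMfn2KO livers, against 8.43, 8.48 and 8.43 in controls. Every POMCMfn2KO liver was higher, POMCMfn2KO 1 by the most and POMCMfn2KO 4 by the least (1.63, 3.10-fold, 95% interval 0.69 to 2.58, adjusted p = 0.0277). Cyp21a1, of glucocorticoid synthesis, differed by -0.08 (adjusted p = 0.455). Cyp11a1, Cyp11b1 and Cyp11b2, the mitochondrial enzymes of adrenal steroid synthesis, had means of 4.16 to 5.08, below the filter.

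Of the retinoic acid and sterol hydroxylases, Cyp26a1 and Cyp46a1 fell, and Cyp26b1 and Cyp39a1 did not pass. Cyp26a1, which degrades retinoic acid and is itself induced by it, read 5.68, 5.86, 5.65, 5.59 and 5.60 in POMCMfn2KO livers, against 6.21, 6.28 and 6.45 in controls. The groups were separate (-0.63, 1.55-fold lower, 95% interval -0.82 to -0.45, adjusted p = 0.00192), but the mean in POMCMfn2KO, 5.68, is under the filter level, so that the gene was tested because of its level in controls and background limits the size. Cyp26b1, its relative, did not pass (0.25, adjusted p = 0.434). Cyp46a1, the hydroxylase of cholesterol best known for cholesterol removal from brain, read 6.05, 5.94, 6.18, 6.25 and 5.86 in POMCMfn2KO livers, against 7.05, 7.42 and 7.002 in controls. It had the smallest adjusted p of the P450 genes tested (-1.10, 2.15-fold lower, 95% interval -1.38 to -0.83, adjusted p = 0.000872).

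Cyp39a1, an oxysterol hydroxylase on a side branch of bile acid synthesis, read 11.65, 11.29, 10.97, 8.70 and 11.54 in POMCMfn2KO livers, against 8.78, 8.99 and 8.94 in controls. In 4 POMCMfn2KO livers it was above every control, and in POMCMfn2KO 4 it lay just under them. The difference of 1.93 missed the threshold (3.81-fold, 95% interval 0.61 to 3.25, adjusted p = 0.0502) and passed without POMCMfn2KO 4 (2.46, adjusted p = 4.54e-05). Leaving out the lowest POMCMfn2KO liver makes the difference of Cyp39a1 larger by construction, and 22.9% of all genes were then called. Of the vitamin D enzymes, Cyp2r1, a hydroxylase that activates vitamin D in liver, differed by -0.48 (adjusted p = 0.174) with POMCMfn2KO 1 lowest at 6.40. Cyp24a1, which degrades vitamin D, differed by -0.03 (adjusted p = 0.840), and Cyp27b1 was below the filter. Cyp20a1, an enzyme of unsettled function, differed by 0.11 (adjusted p = 0.580).

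**Figure D3:**
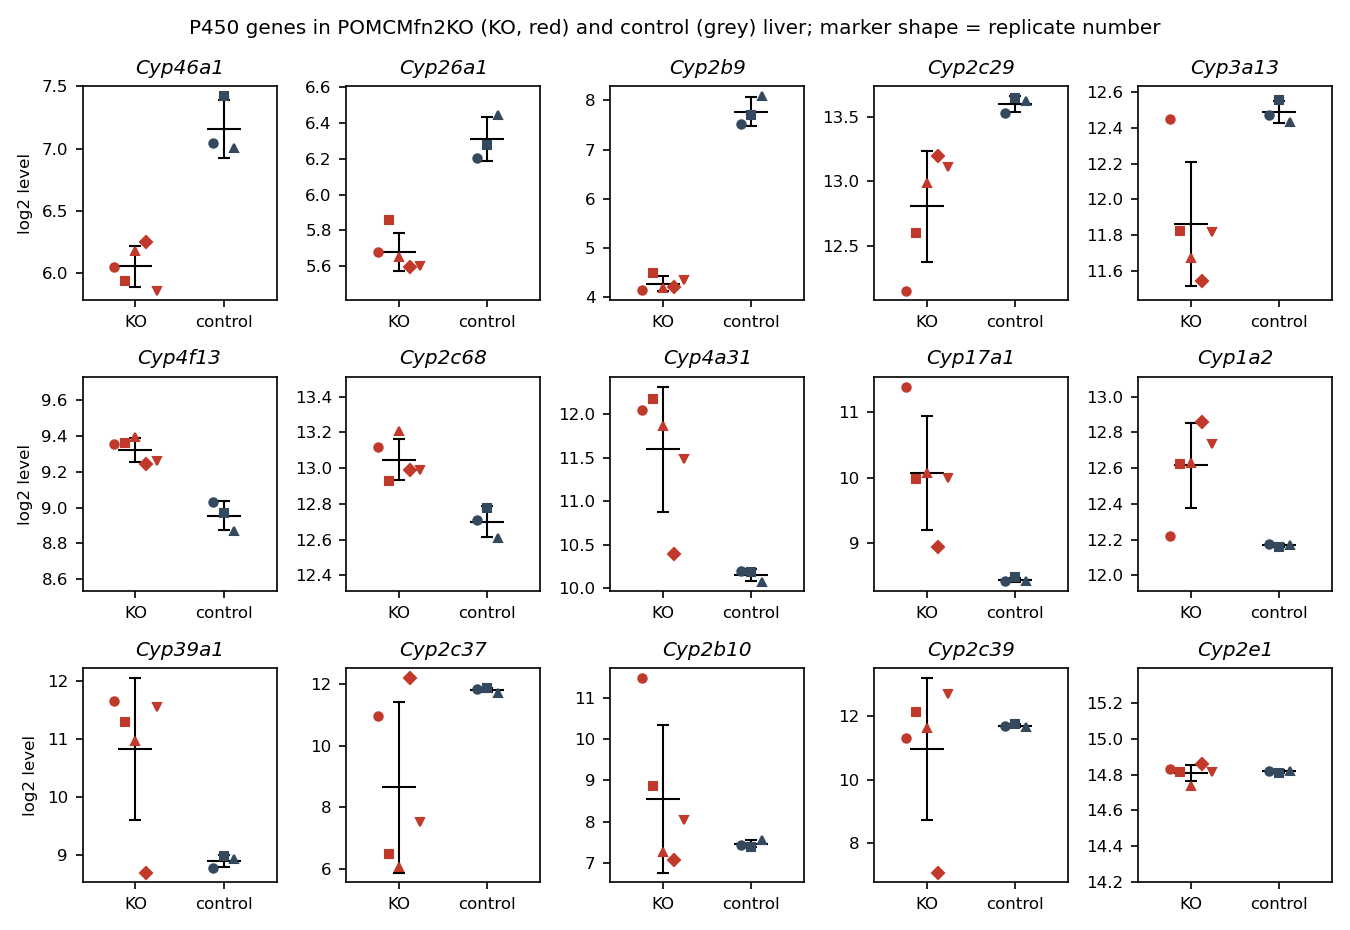
Log2 level of 15 P450 genes in each POMCMfn2KO (KO, red) and control (dark grey) liver, with the mean and SD of each group as bars and the replicate number as the marker shape; each panel has its own vertical range, and Cyp2b9 was below the filter. Cyp46a1, Cyp26a1 and Cyp2b9 separate the groups, whereas Cyp2c37, Cyp2b10 and Cyp2c39 spread over 4.39 to 6.14 within POMCMfn2KO.

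The other 16 P450 genes under the filter, apart from Cyp2b9, Cyp1a1, Cyp1b1 and Cyp27b1, had differences that ran from -0.42 to 0.06. Tested with no filter in limma, Cyp2g1, a female-biased relative of the Cyp2a genes, had a difference of -0.39 with adjusted p = 0.0282, at levels below the filter in both groups.

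The POMCMfn2KO livers differed from each other in P450 expression much more than the controls did. The SD was larger among POMCMfn2KO than among control livers in 42 of the 47 tested P450 genes, and in 80% of all genes tested. The median SD of the P450 genes was 0.162 in POMCMfn2KO and 0.0632 in controls, and over all genes 0.135 in POMCMfn2KO and 0.0686 in controls. An SD above 1 among POMCMfn2KO livers was found in 4 P450 genes (8.51%), Cyp2c37, Cyp2c39, Cyp2b10 and Cyp39a1, against 0.467% of all genes. The highest and lowest POMCMfn2KO livers were more than 1 apart in 14 of the 47 tested P450 genes and more than 4 apart in 3. The largest range of these 47 in controls was 0.44. A range over 5 livers tends to be wider than one over 3, and ranges were not counted over all genes. The number of P450 genes at least 1 away from the control mean was 7, 6, 4, 2 and 8 in POMCMfn2KO 1 to 5 and 0 in each control, whose own values make up that mean. Of all genes tested, 2.79%, 2.68%, 2.35%, 1.14% and 2.5% were this far away in POMCMfn2KO 1 to 5, so that POMCMfn2KO 4 had the fewest in both.

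**Figure D4:**
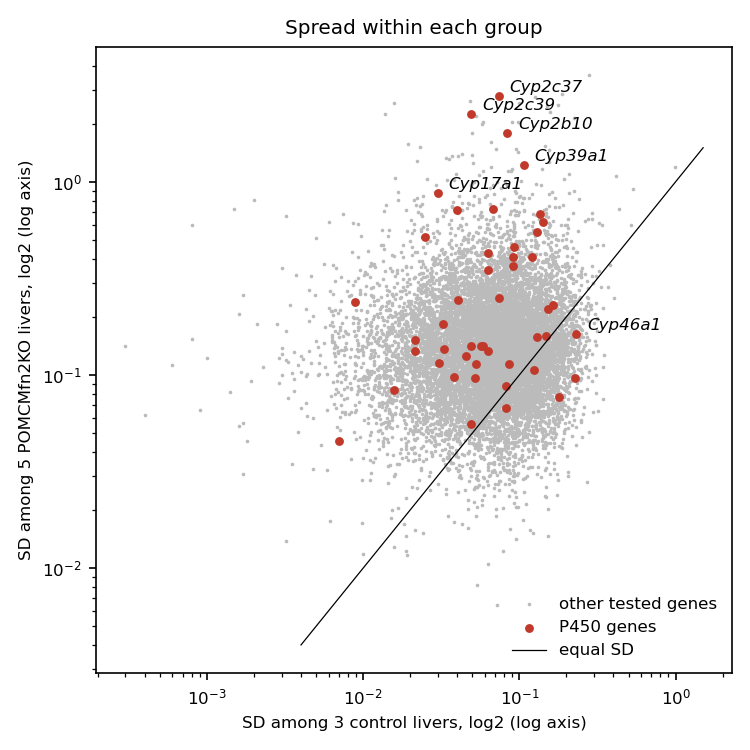
SD among the 5 POMCMfn2KO livers (vertical, log axis) against SD among the 3 controls (horizontal, log axis) for each of the 11986 tested genes in log2 units, with the P450 genes in red. Cyp2c37, Cyp2c39, Cyp2b10 and Cyp39a1 lie above 1 on the vertical axis and near 0.1 or less on the horizontal axis.

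Genes with a known sex bias did not move as a block. Of 3 tested male-biased P450 genes, none passed in limma, at an unadjusted p under 0.05 only Cyp2d9 did, and the median difference was 0.03. Of 4 tested female-biased genes Cyp17a1 rose, and Cyp39a1, Cyp2b10 and Cyp2b13 were higher on average but did not pass. The 4 under the filter were lower on average: Cyp2b9 (-3.49), Cyp3a44 (-0.42), Cyp2g1 (-0.39) and Cyp3a16 (-0.03). The groups overlapped in Cyp3a44 and Cyp3a16, so that no direction can be read from these dim genes. Among growth hormone and sex regulators, 1 of 9 rose and none fell, where 7.02% of all genes rose and 10.9% fell. That gene was Socs2, an inhibitor induced by growth hormone, at 8.44, 11.22, 10.43, 9.91 and 9.79 in POMCMfn2KO livers and 8.26, 8.33 and 8.31 in controls (1.66, adjusted p = 0.0456). Only leaving out POMCMfn2KO 1 kept this call among the single livers left out (at most 0.138), and it was also lost with no filter and with trended variance.

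Bcl6, a repressor of hepatic genes that growth hormone turns down, read 9.88, 6.98, 7.41, 10.35 and 7.91 in POMCMfn2KO livers, against 8.93, 8.96 and 8.98 in controls. POMCMfn2KO 2, 3 and 5 were below the controls and POMCMfn2KO 1 and 4 above them, so that the mean difference of Bcl6 was -0.45 (adjusted p = 0.713). POMCMfn2KO 1 and 4 were also the highest POMCMfn2KO livers in Cyp2c37. Ghr, the growth hormone receptor (-0.61, adjusted p = 0.0836), Stat5b (0.01), Cux2 (0.03), Esr1 (-0.31), Stat5a (-0.16), Tox (-0.24) and Onecut2 (0.27) did not pass.

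Of 7 xenobiotic receptors and partners tested, where 10.9% of all genes fell, Nr1i3, the gene of CAR, fell and none rose. It read 10.39, 10.63, 10.37, 10.63 and 10.43 in POMCMfn2KO livers, against 10.71, 10.85 and 10.76 in controls (-0.29, adjusted p = 0.0433). Leaving out any control, or POMCMfn2KO 1, 3 or 5, ended this call, at adjusted p of at most 0.169, as did testing with no filter or renormalizing by quantiles. Nr1i2, the gene of PXR (0.09, adjusted p = 0.719), Ahr (-0.26, adjusted p = 0.244) and Rxra (-0.21, adjusted p = 0.151), Arnt (0.14), Keap1 (-0.02) and Nfe2l2 (0.17) did not pass. With the mean of all its probe sets, Nfe2l2 turned direction and passed (-0.39, adjusted p = 0.0298). Por, the shared reductase, was not analysed here.

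Of 6 electron transfer partners, 2 fell and none rose, where 10.9% of all genes fell and 7.02% rose. Cyb5r3, the reductase of cytochrome b5, read 11.33, 11.51, 11.66, 12.09 and 11.52 in POMCMfn2KO livers, against 12.25, 12.15 and 12.33 in controls (-0.63, adjusted p = 0.0214). Pgrmc2, a haem-binding membrane protein, differed by -0.28 (adjusted p = 0.0211). Cyb5a, cytochrome b5 itself, did not pass (-0.20, adjusted p = 0.0985), and neither did Cyb5b (-0.45), Fdx1, the mitochondrial ferredoxin (-0.30), or Pgrmc1 (-0.17). Without control 1 or 2 both calls were lost, Cyb5r3 also without control 3 and Pgrmc2 without POMCMfn2KO 3, with adjusted p up to 0.0910 and 0.0999.

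Of 11 genes of haem synthesis and breakdown, 3 fell and none rose, where 10.9% of all genes fell and 7.02% rose. Blvrb, a biliverdin reductase, fell by 0.79 on the log2 scale (adjusted p = 0.00870), Alad, of an early step of haem synthesis, by 0.78 (0.0353) and Urod, of a later step, by 0.39 (0.0175). The Alad call ended when any control, or POMCMfn2KO 2 or 3, was left out (at most 0.122) and Urod without control 1 or 3 (0.0790); both were lost with the mean of all their probe sets. Alas1, the rate-limiting enzyme of haem synthesis, read 11.27, 13.19, 13.03, 11.45 and 12.47 in POMCMfn2KO livers, against 12.22, 12.27 and 12.24 in controls. It was above the controls in POMCMfn2KO 2, 3 and 5 and below them in POMCMfn2KO 1 and 4, so that the mean differed by 0.04 (adjusted p = 0.961). The others, Ppox (0.28, adjusted p = 0.0559), Uros (-0.06), Cpox (-0.17), Fech (-0.21), Hmox1 (0.07), Hmox2 (0.22) and Blvra (0.10), did not pass. Of 4 flavin monooxygenases, another class of drug oxidases, none passed in limma, while Fmo1 (-0.31) and Fmo2 (0.66) had an unadjusted p under 0.05.

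Among 16 hepatic transcription factors, 2 rose and 4 fell, where 7.02% of all genes rose and 10.9% fell. Foxa1 (1.27, adjusted p = 0.0144) and Foxa3 (0.48, adjusted p = 0.0120), pioneer factors of liver genes, rose. The clock output factors Dbp (-2.17, adjusted p = 1.27e-05) and Tef (-0.71, adjusted p = 0.000234), which are known to drive hepatic P450 genes, fell, as did their relative Hlf (-0.30, adjusted p = 0.0404) and the hepatocyte factor Cebpa (-0.29, adjusted p = 0.0355). Hnf4a (0.22, adjusted p = 0.268), Ppara (0.21, adjusted p = 0.350) and the other 8, from -0.11 for Foxa2 to 0.60 for Onecut1, did not pass. Dbp and Tef kept their calls without any 1 liver. Foxa1 was lost without any control, Foxa3 without control 2 or 3, and Hlf and Cebpa without each control and without POMCMfn2KO 3 or 5, Hlf also without POMCMfn2KO 2, at adjusted p of at most 0.0646, 0.0600, 0.159 and 0.133. Hlf and Cebpa were also lost on renormalizing by quantiles.

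Most zonal markers outside the P450 genes did not pass. Of 12 pericentral markers, 5 fell, where 10.9% of all genes fell, and none rose: Gstm3 (-2.23), the ammonium transporter gene Rhbg (-0.87), the glutamate transporter gene Slc1a2 (-0.83), glutamine synthetase Glul (-0.48) and Slc1a4 (-0.46). Of 11 periportal markers, 3 rose, where 7.02% of all genes rose, and none fell: G6pc (0.60), Pck1 (0.36) and Cps1 (0.31). The median difference was -0.49 over the pericentral and 0.16 over the periportal list, against -0.02 over all genes. Of 7 pericentral P450 genes tested, Cyp2c29 fell (-0.79), Cyp1a2 rose (0.45) and 5 did not pass. These 5 were Cyp2c37 (-3.16), Cyp2c50 (-0.79), Cyp2c54 (-0.43), Cyp3a11 (-0.11) and Cyp2e1 (-0.01). The median difference over the 7 was -0.43, so that most but not all were lower. Gstm3, Rhbg, Slc1a2 and Glul passed without any 1 liver. Slc1a4, G6pc and Cps1 were lost without any control, Pck1 without control 1 or 3, Slc1a4 also without POMCMfn2KO 1, 2, 3 or 5 and Cps1 without POMCMfn2KO 3, at adjusted p of at most 0.155, 0.0598, 0.0974 and 0.0662. Without POMCMfn2KO 2 and 3 together, of the calls in these lists of partners, regulators and zonal markers, those of Dbp, Tef, Foxa1, Gstm3, Rhbg, Slc1a2, Glul and G6pc remained.

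**Figure D5:**
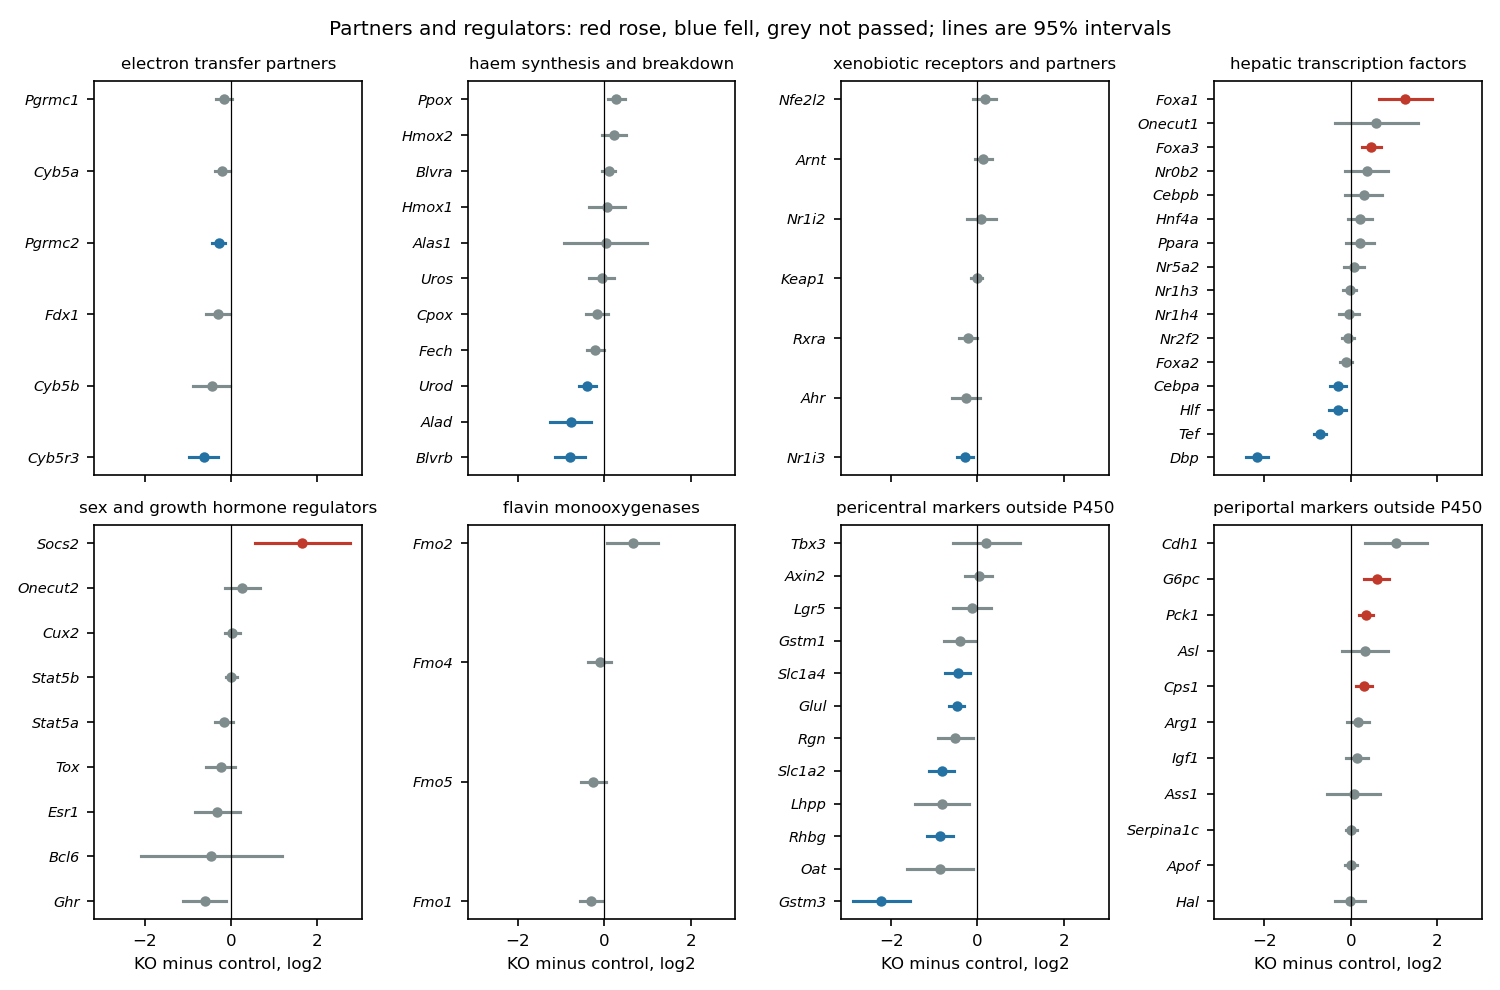
Log2 difference, POMCMfn2KO minus control, with its 95% interval in limma, for the tested genes of 8 lists outside the P450 genes; red genes rose, blue genes fell and grey genes did not pass. Dbp and Gstm3 lie below -2, and Bcl6 and Alas1 have wide intervals around 0.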

How the data were processed

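Whole-liver RNA of 8 mice was hybridised to GeneChip arrays, 1 per mouse, and the samples were grouped by their titles, and the labels call them biological replicates. Per probe set, the authors deposited a log2 level; RMA and the affy package made them, per the submitters' processing notes, with versions not given in the sources used here. They were not transformed again. Precision is limited by how many arrays there are. Symbols came from the platform annotation: of 45101 probe sets, 64 were controls, 34945 had 1 symbol, 932 several and 9160 none. The brightest probe set per gene was used. The 11986 genes with a mean of at least 5.80 entered a 2-sided limma fit (version 3.58.1, R 4.3.3, Benjamini-Hochberg, threshold 0.05). The fit was first checked on simulated data with the same SD in both groups. That check therefore did not cover the unequal spread of these data. Promoter windows were aligned with biopython 1.88; figures used matplotlib 3.10.9. Text names every P450 gene that passed, those with a mean of at least 10, all steroid, vitamin D and retinoic acid members, and tested genes of the lists of partners, haem synthesis and regulators; others were named after their values were seen. The members and lists were chosen with earlier results of these data known.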

Additional observations from a re-analysis of the deposited data

Results flagged for a closer look

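In 4 of the 47 tested P450 genes, 1 POMCMfn2KO liver stood far from the other 4 by Dixon's gap test; chance alone gives such a value in about 1 of 20 groups. Cyp2c39 read 7.07 in POMCMfn2KO 4, where the next lowest liver read 11.33. Cyp39a1 read 8.70 in POMCMfn2KO 4, against 10.97 in the next lowest. Cyp2d13 read 8.83 in POMCMfn2KO 1 and 9.68 in the next lowest, and Cyp4a12a read 12.57 in POMCMfn2KO 1 and 13.05 in the next lowest.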

How the results depend on the processing

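With 3 controls, whose spread was smaller than that of POMCMfn2KO, the counts of called P450 genes depend on the settings. The number that rose, 5, was 8 with a stricter filter (mean of at least 7) and with quantile normalization, 10 with array weights by genotype, 9 and 1 at adjusted p thresholds of 0.1 and 0.01, 0 without POMCMfn2KO 2 and 3 together, and 1 to 9 when single arrays were left out. The number that fell, 4, was 2 with the stricter filter, 7 with array weights, 2 at the 0.01 threshold, 2 without POMCMfn2KO 2 and 3 together, 7 with replicate numbers as a block, and 2 to 7 when single arrays were left out. Array weights by genotype called 17 P450 genes and 26.8% of all genes. The stricter filter removed Cyp26a1 and Cyp46a1 from the test. No filter added Cyp2b9 and Cyp2g1 to those that fell, 6 in all. The mean of all probe sets added Cyp2d22 and Cyp2j6, also 6 in all. A filter on the mean of the brighter group, which was not planned, added Cyp2b9 alone. Cyp39a1, Cyp2c23 and Cyp2d9 passed with the stricter filter, with quantile normalization and with array weights. Replicate numbers did not pair the livers (correlations of same-numbered deviations 0.04, 0.04 and -0.03); with the block 4 P450 genes rose. The sign of Nfe2l2 turned with the mean of all its probe sets (-0.39, adjusted p = 0.0298). The cause of these changes was not tested. In 18193 genes without a filter, 2095 were called.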

Other observations

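Probe sets annotated to several P450 genes were left out of the tests and are given as values. The probe set shared by Cyp2a5 and Cyp2a4 read 11.12, 13.11, 10.66, 12.59 and 12.73 in POMCMfn2KO livers, against 12.87, 12.85 and 12.84 in controls, low in POMCMfn2KO 1 and 3. The probe set shared by Cyp4a31 and Cyp4a10 read 14.75, 14.53, 14.33, 14.38 and 14.28 in POMCMfn2KO livers and 14.14, 14.15 and 14.12 in controls. The probe set shared by Cyp3a41b and Cyp3a41a read 8.23, 8.17, 8.30, 8.18 and 8.64 in POMCMfn2KO livers, against 8.77, 8.62 and 8.73 in controls.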
